A study of Mus musculus with 20 samples.

Results

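The 10 genes described here carry or restrain the signal of the leptin receptor inside the cell: the kinase gene Jak2, the transcription factor genes Stat3, Stat5a and Stat5b, the inhibitor genes Socs1, Socs2, Socs3 and Cish, the phosphatase gene Ptpn1 and the adaptor gene Sh2b3. They were taken by name from the 55573 genes of the count tables, and all 10 were among the 16509 genes with enough counts to be tested. RNA was read in 20 libraries from bone marrow of C57BL/6 mice aged 7 to 9 weeks. Each library came from 1000 to 8000 cells pooled from 2 mice. All cells lacked lineage antigens and carried Sca-1 and c-Kit. Haematopoietic stem cells (HSC) were gated as CD150+CD48- and multipotent progenitors (MPP) as CD150-CD48-, and both were split by an antibody to the leptin receptor on the cell surface. This gave 4 groups of 5 libraries, HSC and MPP each without (Lepr-) and with (Lepr+) the surface receptor. The labels name no leptin treatment for any group. Because the labels pool 2 mice for each sample, the spread between libraries is one between pools.

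Leptin binds a receptor that has no kinase of its own and works through JAK2, which phosphorylates the receptor tail. STAT3 docks there, STAT5 at another tyrosine, and both enter the nucleus and switch on genes that include their own inhibitors. SOCS3 binds the receptor and JAK2, CIS and SOCS2 act mainly on receptors that signal through STAT5, and SOCS1 blocks the kinase domain. PTP1B, the product of Ptpn1, removes phosphate from JAK2, and LNK, the product of Sh2b3, holds back JAK2 below the thrombopoietin receptor of stem cells. The same proteins serve many other cytokine receptors of blood cells, so their mRNA is not a readout of leptin alone.

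On GRCm38 the STAT genes lie side by side on chromosome 11: Stat5b from 100780731 to 100850724, Stat5a from 100859351 to 100885169 and Stat3 from 100885098 to 100939540. The last exons of Stat5a and Stat3 run toward each other on opposite strands and share 72 bases, 1.01% of the exon length of Stat5a and 0.76% of that of Stat3. Socs3 lies on the same chromosome from 117966079 to 117970047. Cish (chromosome 9, 107296026 to 107302784), Socs1 (chromosome 16, 10782240 to 10785536) and Socs2 (chromosome 10, 95385362 to 95417180) stand apart. So do Jak2 (chromosome 19, 29251828 to 29313080), Ptpn1 (chromosome 2, 167932057 to 167979385) and Sh2b3 (chromosome 5, 121815488 to 121837646). Sh2b3 shares 99 exonic bases, 2.06% of its exon length, with Atxn2 on the other strand. The libraries carried no strand, so read pairs in shared exons cannot be told apart. Stat5a and Stat5b are close copies, and read pairs from stretches they have in common could not be placed on one of them.

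STAT proteins bind the palindrome TTCNNNGAA, which reads the same on both strands. It was searched in windows of 300 bases, from 250 before to 50 after each RefSeq start (GRCm38.p6), which held 11 windows for 9 of the genes, all but Socs2. Cish and Socs3 had a match. The stretches that hold the matches are shown 5′ to 3′ because both genes are textbook STAT targets whose mRNA levels the results below turn on. Capitals mark the matches. The Cish stretch (chr9:107296559-107296678, plus strand) runs from 100 bases before the start, and the Socs3 stretch (chr11:117969451-117969570, minus strand) from 204 bases before it.
Cish: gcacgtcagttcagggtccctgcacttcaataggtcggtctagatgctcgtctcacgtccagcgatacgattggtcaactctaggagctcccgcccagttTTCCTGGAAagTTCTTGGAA
Socs3: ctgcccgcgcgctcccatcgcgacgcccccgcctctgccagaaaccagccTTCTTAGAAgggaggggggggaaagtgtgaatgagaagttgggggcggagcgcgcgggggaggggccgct
Cish held 2 matches, one at its RefSeq start (107296659) and one 11 bases after it, while the 1 match of Socs3 lay 154 bases before its RefSeq start (117969366). Both RefSeq starts lie inside the gene spans given above, which come from another annotation, GENCODE M21. Of all 32851 windows, 8.30% held at least 1 match and 0.457% at least 2. A match describes the letters only, and binding was not measured.

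Libraries held 9532993 to 31589794 counts in genes. Values are given in CPM, counts per 1000000 after scaling of library sizes. The sorted cells carried Kit (group means of 562 to 883.1 CPM). Slamf1, the gene of CD150, stood at 46.6 ± 13.4 CPM among Lepr- HSC libraries but 5.12 ± 3.83 CPM among Lepr- MPP libraries (SD, n = 5). Cd48 was not level, although both cell types were gated CD48-. Without surface receptor HSC averaged 14.3 ± 6.59 CPM of Cd48 and MPP 50.6 ± 16.1 CPM. With surface receptor HSC averaged 10.5 ± 5.06 CPM and MPP 25.6 ± 9.37 CPM. Ly6a, the gene of Sca-1, had higher means with surface receptor. For HSC they were 65.2 ± 34.2 CPM without and 164.1 ± 56.4 CPM with it, and for MPP 157.4 ± 48.5 and 238.9 ± 72.8 CPM. Lepr mRNA itself was low and uneven, with 0 to 0.165 CPM in Lepr- HSC, 0.0759 to 9.36 CPM in Lepr+ HSC, 0 to 0.767 CPM in Lepr- MPP and 0.261 to 38.8 CPM in Lepr+ MPP. The libraries least like their own groups were Lepr+ MPP replicates 4 and 5 and Lepr+ HSC replicate 5 (mean correlation of 0.815, 0.858 and 0.837).

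The transcription factor genes had higher levels than the SOCS genes in every group mean. Per kilobase of annotated exon, Stat5b led in all 4 groups. It had 38.2 ± 7.52 CPM per kb in Lepr- HSC and 49.3 ± 8.38 CPM per kb in Lepr- MPP (SD, n = 5 here and for all group values below). Stat5a stood at 29 ± 3.66 and 33.2 ± 5.58 CPM per kb in the same groups. Stat3 stood at 19.7 ± 7.46 and 34.96 ± 10.5 CPM per kb, so that it came below Stat5a in 5 of 5 Lepr- HSC libraries but in 2 of 5 Lepr- MPP libraries. Next came Ptpn1 (group means of 16.8 to 21.7 CPM per kb), Jak2 (10.5 to 15.4) and Sh2b3 (8.39 to 19.6), whose order changed from library to library. The 4 SOCS family genes closed the order in every group. In Lepr- HSC they ran from Socs1 (6.28 ± 2.35 CPM per kb) over Cish (5.11 ± 1.07) and Socs2 (2.93 ± 1.11) to Socs3 (1.11 ± 0.442). In Lepr- MPP, Socs3 led them with 6.46 ± 3.23 CPM per kb and Socs2 came last with 1.15 ± 0.616 CPM per kb. Per kb, Socs1 and Cish did not differ beyond their spread in any group, since each stood above the other in 2 or 3 of 5 libraries. This order rests on the exon length, which counts every annotated exon of a gene and can exceed its mRNA. In CPM, Cish had a higher mean than Socs1 in every group. Stat5a and Stat5b were close in Lepr- HSC (206.9 ± 26.1 and 211.7 ± 41.7 CPM). Stat3 averaged more than Stat5b in Lepr- MPP (333.0 ± 100.4 and 272.8 ± 46.4 CPM). The genes also differed in how much they varied between libraries of a group. Stat5b and Stat5a were among the steadiest genes measured, with a biological coefficient of variation of 0.247 and 0.2495 against a median of 0.559 over all genes tested. Jak2 (0.672) and Socs3 (0.728) lay above that median.

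**Figure D1:**
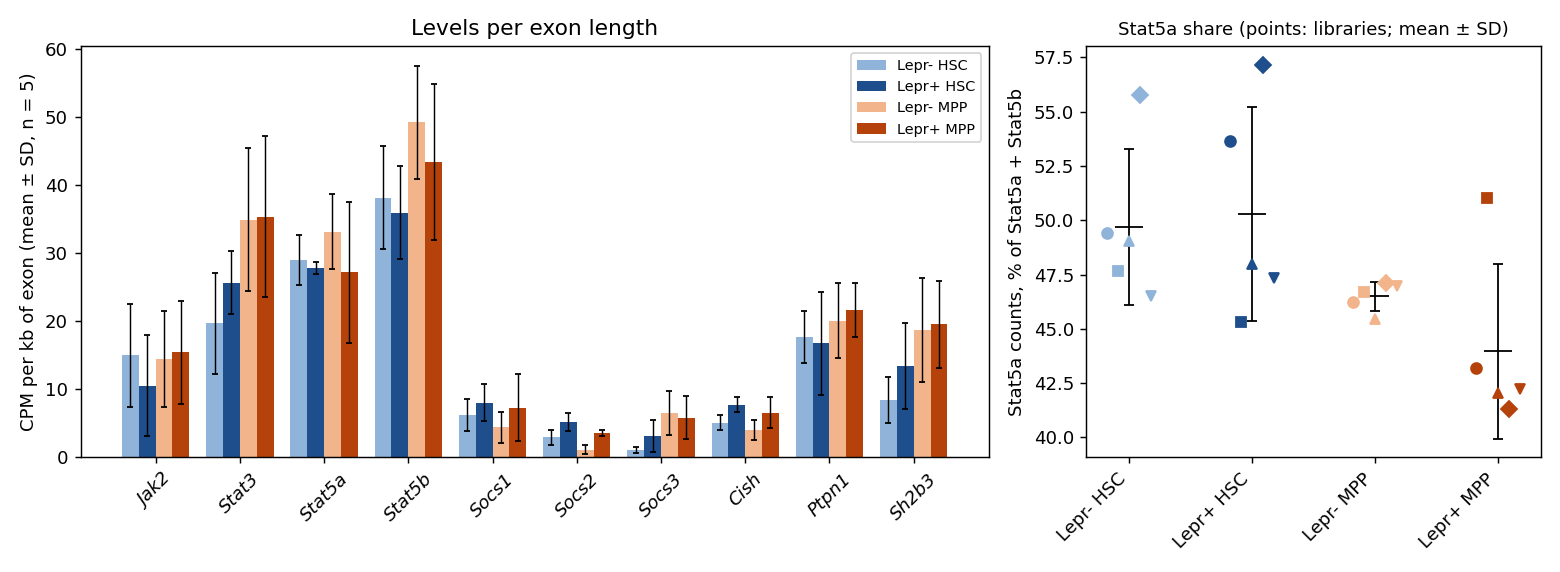
Left, mean CPM per kb of exon for each gene in the 4 groups (bars from 0, error bars SD, n = 5); right, Stat5a counts as a percentage of Stat5a plus Stat5b counts in each library (points, with mean ± SD; the axis does not start at 0). Per kb of annotated exon Stat5b led in every group, and the Stat5a share lay lowest in 4 of the Lepr+ MPP libraries.

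Between cells with and without surface receptor, Socs2 and Cish had the most uniform differences. Both were higher in the Lepr+ library of all 5 replicate numbers, in HSC and in MPP. Neither passed the test over all genes. Of all genes tested, 1.42% were likewise higher in 5 of 5 pairs of both cell types. Socs1 was higher in 5 of 5 HSC pairs and in 4 of 5 MPP pairs. Fewer cells that make a transcript and less transcript per cell cannot be told apart in these bulk samples.

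Socs2, an inhibitor of growth hormone and STAT5 signals, had 15.7, 11.6, 16.1, 1.60 and 9.88 CPM in Lepr- MPP replicates 1 to 5. In Lepr+ MPP replicates 1 to 5 it had 37.4, 29.8, 32.8, 31.97 and 39.3 CPM. The groups did not overlap, as held in that direction for 1.19% of all genes tested, and the Lepr+ MPP libraries lay close together (34.2 ± 3.92 CPM). The fitted log2 fold change was 1.64 ± 0.40 (SE; unadjusted p = 0.000632, adjusted p = 0.131, and adjusted p = 0.0612 with replicate number as a block). DESeq2, which called 1.29% of all genes tested, gave an adjusted p of 0.00465. In HSC, Socs2 had 46.2, 21.1, 26.9, 24.2 and 21.01 CPM without surface receptor and 68.0, 45.6, 51.0, 33.4 and 51.5 CPM with it. These groups overlapped through Lepr- HSC replicate 1, whose partner was also the highest of its own group. The log2 fold change was 0.84 ± 0.40 (adjusted p = 0.699). In June and July libraries taken alone it was 0.86 and 0.84 in HSC and 1.37 and 2.23 in MPP. Socs2 in Lepr- MPP replicate 4 rested on 23 counts, and without that library the MPP value was 1.36.

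Cish encodes CIS, the first described member of the SOCS family and a direct STAT5 target. It had 41.7, 33.3, 29.3, 23.6 and 36.1 CPM in HSC without surface receptor, while the Lepr+ HSC libraries held 60.1, 46.2, 44.5, 53.6 and 43.9 CPM, so that every Lepr+ library lay above every Lepr- library. Of all genes tested, 0.999% were higher without overlap in that comparison. The log2 fold change was 0.60 ± 0.29 (adjusted p = 0.7102). In MPP the values were 29.02, 14.1, 28.6, 18.97 and 38.2 CPM without and 46.3, 19.3, 38.5, 57.9 and 49.2 CPM with surface receptor. The MPP groups overlapped, with replicate 2 lowest in both, and the log2 fold change was 0.71 ± 0.29 (adjusted p = 0.774). In June and July alone Cish gave 0.47 and 0.85 in HSC and 0.47 and 1.22 in MPP. Leaving out the 3 least group-like libraries, the MPP value was 0.43.

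**Figure D2:**
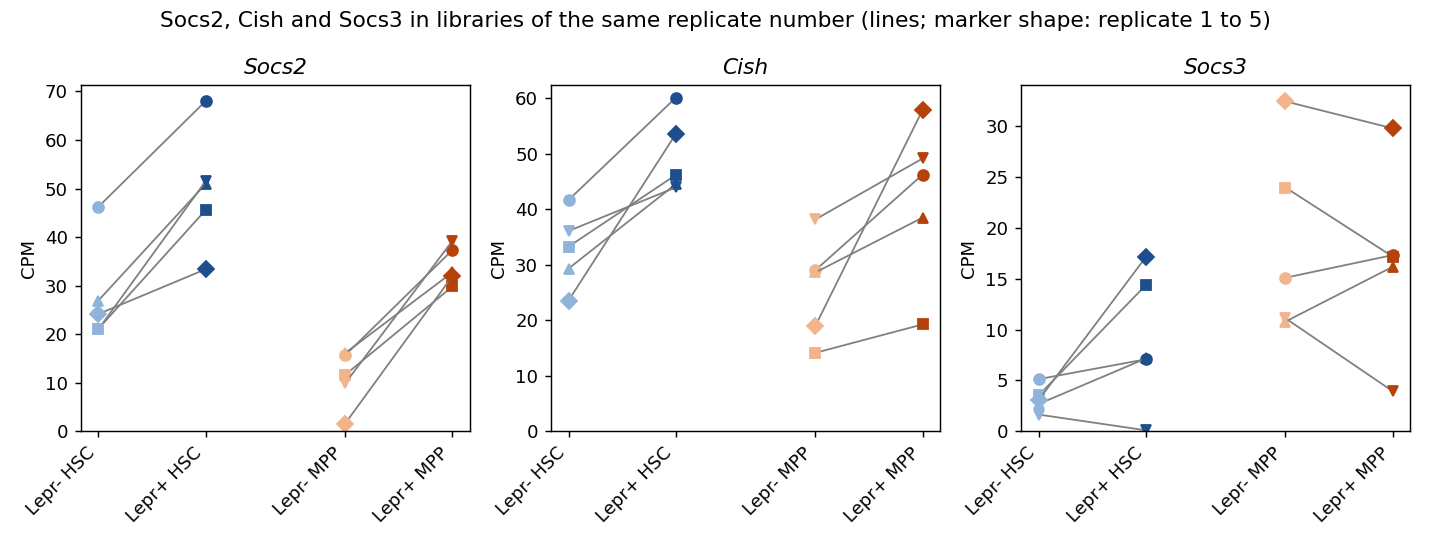
CPM of Socs2, Cish and Socs3 (linear axes from 0) in the 4 groups, with lines joining the Lepr- and Lepr+ library of the same replicate number and marker shape giving the number. All 10 lines slope upward for Socs2 and for Cish, whereas those of Socs3 go up in 4 of 5 HSC pairs and in 2 of 5 MPP pairs.

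Socs3, the inhibitor that leptin induces through STAT3, was scarce in Lepr- HSC, with 5.13, 3.54, 2.69, 3.08 and 1.65 CPM. In Lepr+ HSC it had 7.08, 14.4, 7.17, 17.1 and 0.105 CPM. Replicate 5 held a single count, and the other Lepr+ HSC libraries all lay above the Lepr- group. The log2 fold change was 1.51 ± 0.71 (adjusted p = 0.695), 0.62 in June and 2.28 in July libraries alone, and 1.82 without Lepr+ HSC replicate 5 (adjusted p = 0.287). In MPP, Socs3 had 10.8 to 32.4 CPM without and 3.94 to 29.8 CPM with surface receptor (medians of 15.1 and 17.2 CPM, log2 fold change -0.15 ± 0.69). The difference between the effect in HSC and that in MPP was 1.65 ± 0.98 on the log2 scale (unadjusted p = 0.107, adjusted p = 1.00). Socs1, which blocks JAK kinases directly, averaged 18.3 ± 6.85 CPM among Lepr- HSC libraries and 23.4 ± 7.77 CPM among Lepr+ ones. In MPP it had 12.8 ± 6.51 and 21.2 ± 14.3 CPM, where Lepr+ replicates 4 and 5 (30.5 and 41.8 CPM) held the upper end. Its log2 fold change in MPP was 0.72 ± 0.44 (adjusted p = 1.00) and turned to -0.18 once the 3 least group-like libraries were left out.

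None of the kinase and transcription factor genes reached an unadjusted p under 0.05 by receptor status with group as the only term. With replicate number as a block in edgeR, Stat3 did in HSC (0.45 ± 0.18, unadjusted p = 0.0204, adjusted p = 0.299). So did Stat5b in MPP (-0.21 ± 0.09, unadjusted p = 0.0445, adjusted p = 0.721). Stat5a was almost level in Lepr+ HSC, with 201.7, 191.4, 207.2, 193.0 and 199.1 CPM, against 182.6, 225.1, 243.4, 193.9 and 189.4 CPM in Lepr- HSC (log2 fold change -0.06 ± 0.21). Stat5b had 211.7 ± 41.7 and 199.2 ± 37.9 CPM in the same groups (-0.09 ± 0.20). Stat3 averaged 187.8 ± 71.0 CPM among Lepr- HSC libraries, with 244.8 ± 43.8 CPM among Lepr+ ones (0.38 ± 0.29, higher in 4 of 5 pairs). In MPP, Stat3 had 333.0 ± 100.4 and 337.3 ± 113.1 CPM, a log2 fold change of 0.02 ± 0.29. Jak2 varied widely inside each group. Lepr+ HSC replicates 1 to 5 had 48.6, 66.7, 104.3, 43.3 and 1.68 CPM of Jak2, the last from 16 counts, and Lepr- HSC had 34.7 to 134 CPM (log2 fold change -0.51 ± 0.63, and 0.10 ± 0.62 in MPP). The same replicate 5 was lowest of its group for Ptpn1 as well (23.9 CPM against 93.8 to 135.3 CPM), but not for Stat3 (262.4 CPM) or Socs2. Sh2b3 had 60.99, 38.99, 45.8, 16.02 and 39.8 CPM in HSC without surface receptor, and 93.5, 63.8, 97.1, 36.2 and 33.01 CPM with it, higher in 4 of 5 pairs (0.68 ± 0.39, adjusted p = 0.865, and 0.121 with the block).

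By edgeR's quasi-likelihood test 0 of the 10 genes were called between Lepr+ and Lepr- HSC, where 0.103% of all genes tested were called, and 0 in MPP, where 0.2% were. At an unadjusted p under 0.05 there were 3 in HSC (Socs2, Socs3 and Cish) and 2 in MPP (Socs2 and Cish), all higher in Lepr+ cells. Of all genes tested, 4.73% in HSC and 3.33% in MPP were higher at that level. DESeq2 called 0 in HSC and 1, Socs2, in MPP, where it called 1.09% and 1.29% of all genes tested. The median log2 fold change of the 10 genes was 0.37 in HSC and 0.08 in MPP, against 0.00 and 0.01 over all genes. The difference between the 2 receptor effects passed for 0 of 10 genes and for 0 of all genes tested with edgeR (529 genes, 3.2%, at an unadjusted p under 0.05, none of them a member, and 19 genes by DESeq2).

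**Figure D3:**
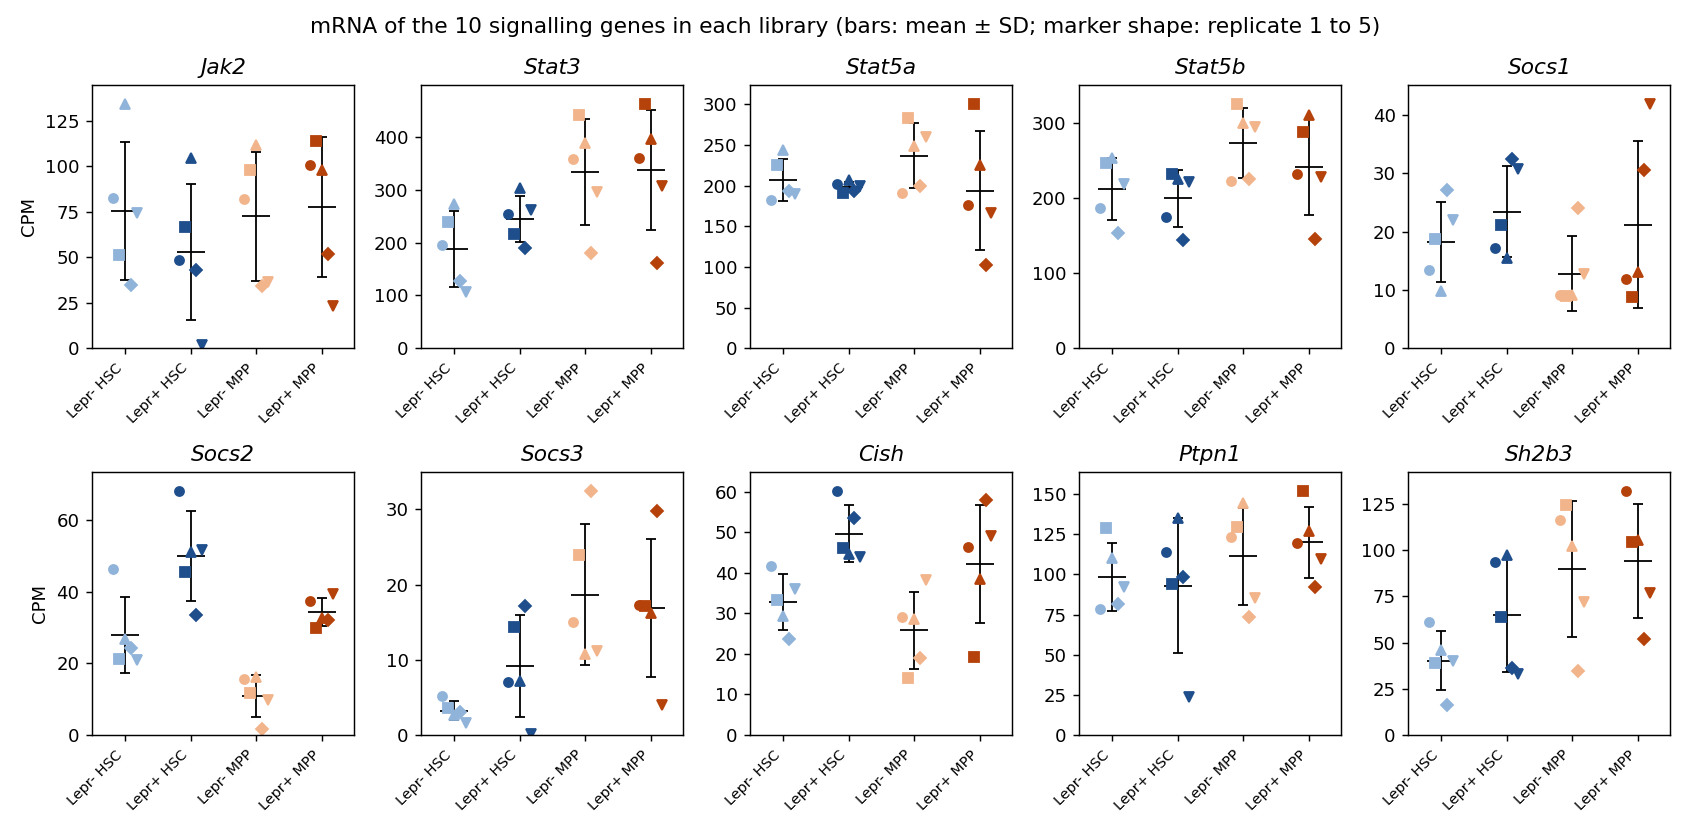
CPM of each of the 10 genes (linear axes from 0) in the 20 libraries, coloured by group with marker shape giving the replicate number, and mean ± SD as black bars. Socs2 in MPP and Cish in HSC separate by receptor status, while Jak2 and Ptpn1 have one Lepr+ HSC library, replicate 5, far below the rest of its group.

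Some markers of other marrow cells moved with receptor status too. Summed over 20 stromal genes, Lepr- MPP libraries had 60.5 to 101.5 CPM and Lepr+ MPP libraries 217.1 to 4961 CPM. Of these genes 7 reached a mean of 1 CPM in Lepr- MPP and 18 in Lepr+ MPP. Lum, Adipoq, Pdgfra, Ebf3 and Grem1 were at 0 counts in all Lepr- MPP libraries, whereas each of the 20 was counted in some Lepr+ MPP library. In HSC the stromal sum was 23.9 to 303.7 CPM without and 46.2 to 301.0 CPM with surface receptor. Summed over 16 endothelial genes the ranges were 811.3 to 917.0 and 988.6 to 1301 CPM for HSC (Lepr-, then Lepr+), and 565.0 to 884.3 and 909.9 to 1513 CPM for MPP. Summed B and plasma cell genes reached 84.2 to 4478 CPM in Lepr+ MPP, against 112.3 to 280.1 CPM in Lepr- MPP. Megakaryocyte genes went the other way in HSC, with sums of 3098 to 6859 CPM without and 1680 to 3992 CPM with surface receptor. Their MPP sums, 755.4 to 1188 CPM without and 1001 to 1482 CPM with surface receptor, were higher with it in 5 of 5 pairs. Summed T and NK cell genes were lower in the Lepr+ library of 5 of 5 pairs in HSC and in MPP (111.6 to 199.7 CPM without and 72.2 to 136.4 CPM with surface receptor in MPP). Erythroid sums were lower in the Lepr+ library of 5 of 5 MPP pairs but of only 3 of 5 HSC pairs. The median log2 fold change of 13 erythroid genes by receptor status was -1.50 in HSC and -1.13 in MPP. Summed immediate early and stress genes were higher in the Lepr+ library of 5 of 5 HSC pairs and of 4 of 5 MPP pairs. In HSC they ran from 316.7 to 502.0 CPM without and from 417.9 to 848.3 CPM with surface receptor. In MPP they ran from 333.3 to 532.2 CPM without and from 313.6 to 584.8 CPM with it. Summed neutrophil genes were higher in the Lepr+ library of 2 of 5 HSC pairs and of 1 of 5 MPP pairs. Summed monocyte and macrophage genes were higher in 3 of 5 HSC pairs and in 4 of 5 MPP pairs. The part of these cells and genes in the SOCS values was not tested.

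**Figure D4:**
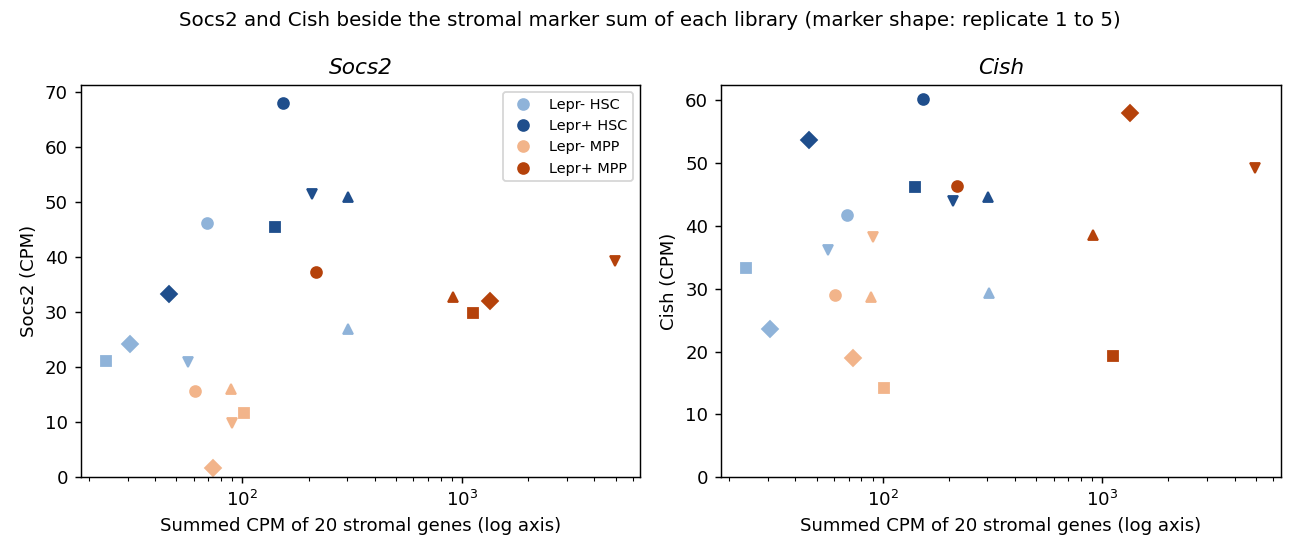
Socs2 (left) and Cish (right) in CPM against the summed CPM of 20 stromal genes (log axis) in each of the 20 libraries, coloured by group with marker shape giving the replicate number. The Lepr+ MPP libraries lie farthest to the right, with stromal sums of 217.1 to 4961 CPM, though replicate 1 falls among the HSC libraries.

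Between the cell types, the differences were read first among cells without surface receptor. Lepr- HSC had less Socs3, Stat3, Stat5b and Sh2b3 and more Socs2 than Lepr- MPP. Group as the only term gave 0 calls among the 10 genes, where 2.73% of all genes tested were called. With replicate number as a block, which compares libraries of the same number, 5 of the 10 were called, where 7.5% of all genes tested were. That pairing was inferred from the design text, numbers and dates. Libraries of number 2 showed little of it, with a median correlation of 0.0084 between their deviations from group means.

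Socs3 had the widest difference of the 10 genes. Lepr- MPP replicates 1 to 5 had 15.1, 23.96, 10.8, 32.4 and 11.1 CPM, all above the 1.65 to 5.13 CPM of Lepr- HSC. Of all genes tested, 3.43% were lower in HSC without overlap. The log2 fold change was -2.53 ± 0.73 (adjusted p = 0.0741, and 0.0170 with the block), -1.98 in June and -3.13 in July libraries alone. Socs2 went the other way, with 21.01 to 46.2 CPM among Lepr- HSC libraries but 1.60 to 16.1 CPM among Lepr- MPP ones, also without overlap (2.79% of all genes tested were higher so). Its log2 fold change was 1.34 ± 0.40 (adjusted p = 0.0881, and 0.0220 with the block), 1.15 in June and 1.74 in July alone. The 2 inhibitors thus had opposite differences between the same libraries. With DESeq2 both were called (adjusted p = 0.00445 for Socs3 and 0.0190 for Socs2), as were 5.08% of all genes tested. Leaving out the 3 least group-like libraries, a choice made after seeing the data, edgeR called Socs3 (adjusted p = 0.00128) and 4.28% of all genes tested. All 3 were Lepr+, so the libraries compared here stayed the same and only the fit shared by all groups changed. Socs2 was called without Lepr- MPP replicate 4 (1.06, adjusted p = 0.0418), as were 2.69% of all genes tested.

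Sh2b3, whose product restrains thrombopoietin signalling in stem cells, had 60.99, 38.99, 45.8, 16.02 and 39.8 CPM among the HSC, whereas the MPP libraries held 116.0, 124.5, 102.3, 34.7 and 71.8 CPM. HSC were lower in 5 of 5 pairs, while the groups overlapped through MPP replicate 4. The log2 fold change was -1.16 ± 0.39 (adjusted p = 0.159, and 0.00122 with the block). Stat3 had 194.8, 238.1, 272.9, 127.7 and 105.6 CPM among the HSC, whereas the MPP libraries held 358.4, 441.9, 388.9, 180.5 and 295.5 CPM, lower in HSC in 5 of 5 pairs. Its log2 fold change was -0.83 ± 0.29 (adjusted p = 0.187, and 0.00785 with the block), -0.88 in June and -0.79 in July alone. Stat5b had 211.7 ± 41.7 against 272.8 ± 46.4 CPM, again lower in 5 of 5 pairs (-0.37 ± 0.20, adjusted p = 0.525, and 0.0215 with the block). Stat5a was lower in 5 of 5 pairs too but was not called (-0.20 ± 0.21, adjusted p = 0.604 with the block). Of all genes tested, 11.2% were lower in HSC in 5 of 5 pairs. Jak2 (75.4 ± 37.8 and 72.5 ± 35.4 CPM), Ptpn1 (98.2 ± 21.2 and 111.1 ± 30.4 CPM), Cish (32.8 ± 6.84 and 25.8 ± 9.41 CPM) and Socs1 (18.3 ± 6.85 and 12.8 ± 6.51 CPM) had adjusted p from 0.299 to 0.880 with the block. Megakaryocyte genes differed between the same groups, with summed values of 3098 to 6859 CPM (HSC) and 755.4 to 1188 CPM (MPP). Immediate early genes, which respond to cell handling as Socs3 can, overlapped, with sums of 316.7 to 502.0 and 333.3 to 532.2 CPM. The part of either in these differences was not tested.

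Among cells with surface receptor the same 5 genes kept the sign of their difference between HSC and MPP, at smaller values, and 0 of the 10 were called with or without the block (lowest adjusted p = 0.154 with it). In that comparison 0.466% of all genes tested were called, and 1.77% with the block. Log2 fold changes were -0.88 ± 0.69 for Socs3, 0.54 ± 0.39 for Socs2, -0.54 ± 0.39 for Sh2b3, -0.46 ± 0.29 for Stat3 and -0.27 ± 0.20 for Stat5b. Socs2 was higher in HSC in 5 of 5 pairs, as were 5.8% of all genes tested, and Socs3, Sh2b3 and Stat5b were lower in 5 of 5, as were 5.68%. The test of whether the cell types differ more among Lepr- than among Lepr+ cells is that of the difference between receptor effects given above, which passed for 0 of the 10 genes (adjusted p of 0.978 or more with the block).

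**Figure D5:**
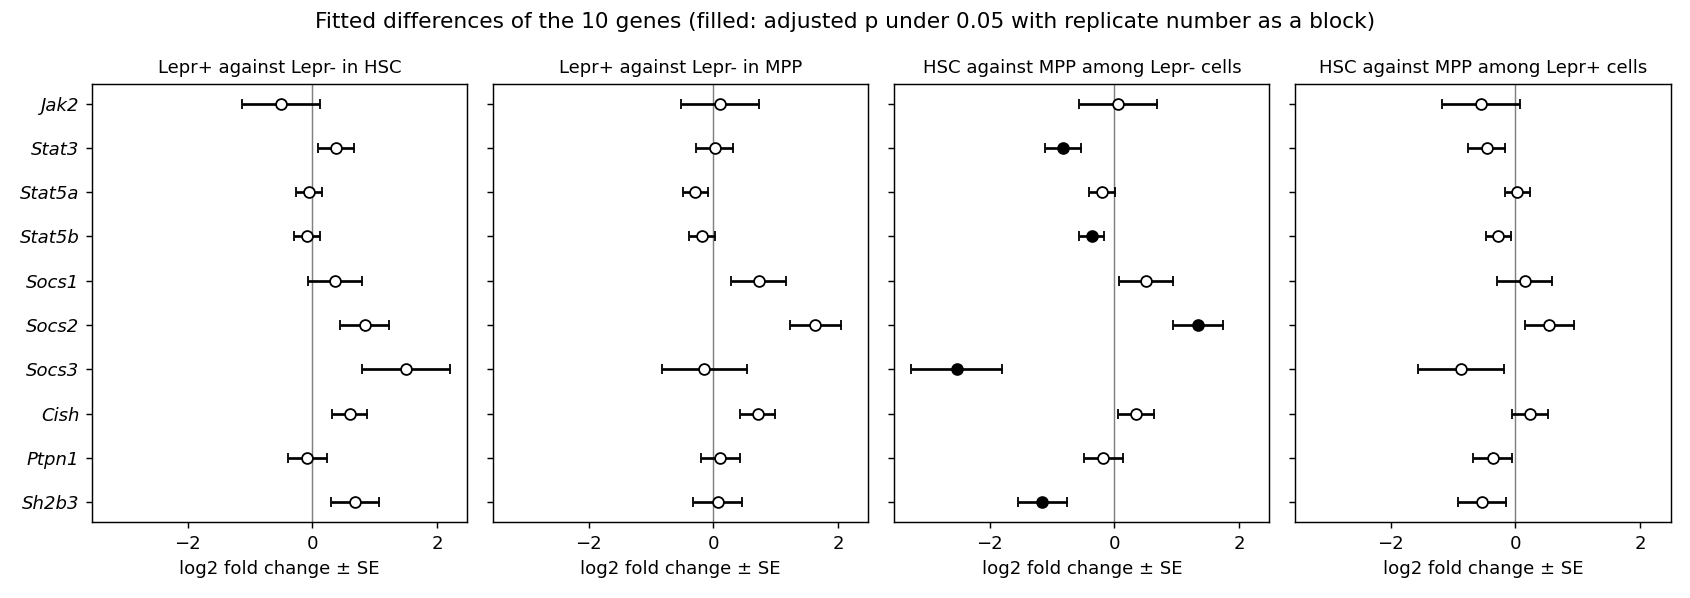
Fitted log2 fold changes (points, bars SE) of the 10 genes in the 4 comparisons, with group as the only term and the first-named group as numerator. Filled points have an adjusted p under 0.05 in the separate fit with replicate number as a block, whose SE are not drawn. The 5 filled points (Stat3, Stat5b, Socs2, Socs3 and Sh2b3) all lie in the comparison of HSC with MPP among Lepr- cells.

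Stat5a and Stat5b encode near-identical proteins, and the share of Stat5a in the counts of both genes does not depend on library size. It was 49.4, 47.7, 49.1, 55.8 and 46.5% in Lepr- HSC and 53.6, 45.3, 47.99, 57.2 and 47.4% in Lepr+ HSC. In Lepr- MPP it was 46.2, 46.7, 45.5, 47.1 and 47.0%, the tightest group (46.5 ± 0.671%). In Lepr+ MPP it was 43.2, 51.04, 42.04, 41.3 and 42.2%, so that 4 libraries lay below every other library and replicate 2 stood apart. The share was 3.19 percentage points higher in Lepr- HSC than in Lepr- MPP (two-sided exact permutation p = 0.0317, adjusted over 4 comparisons p = 0.127). It was 6.33 points higher in Lepr+ HSC than in Lepr+ MPP (exact p = 0.0635, adjusted p = 0.127). By receptor status it differed by 0.608 points in HSC (exact p = 0.873, adjusted p = 0.873) and by -2.53 points in MPP (exact p = 0.230, adjusted p = 0.307). With 1 library left out at a time, the exact permutation test gave adjusted p from 0.0317 to 0.529 for Lepr+ against Lepr- MPP (-4.30 to -1.86 points) and from 0.0317 to 0.254 for Lepr+ HSC against Lepr+ MPP (4.61 to 8.10 points). The lowest p of both came without Lepr+ MPP replicate 2, the library that stood apart, and no other omission passed. For Lepr- HSC against Lepr- MPP the range was 0.0317 to 0.159 (1.67 to 3.99 points), with the lowest without Lepr- HSC replicate 5 and no other below the threshold. An exact sign-flip test over the 5 replicate pairs gave an adjusted p of 0.333 for these 3 comparisons and 0.688 by receptor in HSC.

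The rest of the pathway was read from fixed lists. Of 20 receptors that signal through JAK2, 18 were tested, and 0 were called by receptor status in either cell type. Between Lepr- HSC and Lepr- MPP, where 2.73% of all genes tested were called (7.5% with the block), 3 fell: Csf3r, the receptor of granulocyte colony-stimulating factor (27.9 ± 18.6 against 163.0 ± 59.7 CPM, -2.54, adjusted p = 0.00958), and both interferon gamma receptor genes. Ifngr1 changed by -0.90 (adjusted p = 0.0141) and Ifngr2 by -1.34 (adjusted p = 0.00972). Of 7 other Janus kinases and STATs 1 fell in the same comparison, Jak3, the kinase of the common gamma chain receptors (180.8 ± 37.6 against 361.3 ± 72.6 CPM, -0.999, adjusted p = 0.0436). Of 14 other inhibitors 0 were called in any comparison, and with the block 1 fell in Lepr- HSC, Ptpn6, the phosphatase SHP-1 (-0.82, adjusted p = 0.262, and 0.00378 with the block). Of 14 tested genes from other arms of the leptin receptor signal 0 were called with group as the only term.

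Textbook targets of STAT5 were called in both directions, and those of STAT3 only downward. Of 11 tested STAT5 targets 2 rose and 2 fell in Lepr- HSC against Lepr- MPP, where 2.73% of all genes tested were called. With the block 3 rose and 2 fell (7.5% of all genes), Ccnd2 being added (0.58, adjusted p = 0.214, and 0.00520 with the block). The survival gene Bcl2l1 (136.0 ± 27.5 against 63.2 ± 22.2 CPM, 1.11, adjusted p = 0.0186) and the cyclin gene Ccnd3 (0.85, adjusted p = 0.00275) were higher in HSC. The kinase genes Pim1 (-1.18, adjusted p = 0.0324) and Pim2 (-1.38, adjusted p = 0.0117) were lower. Bcl2l1 also rose in Lepr+ HSC against Lepr+ MPP (1.38, adjusted p = 0.0173), where 0.466% of all genes tested were called. With the block 2 rose there (1.77% of all genes), Ccnd3 being added (0.45, adjusted p = 0.290, and 0.0368 with the block). By receptor status 0 of the 11 were called. With the block, which called 1.02% of all genes tested, 1 rose in Lepr+ HSC, Pim2 (48.4 ± 19.4 to 95.1 ± 11.3 CPM, 0.98, adjusted p = 0.298, and 0.0275 with the block, higher in 5 of 5 pairs). The median log2 fold change of STAT5 targets by receptor status was 0.17 in HSC and -0.01 in MPP. Of 14 STAT3 targets 2 fell in Lepr- HSC against Lepr- MPP (2.73% of all genes tested were called), Il4ra, the interleukin 4 receptor gene (-1.24, adjusted p = 0.00439), and Pim1, which stands in both lists. With the block 3 fell (7.5% of all genes), Myc being added (-0.29, adjusted p = 0.574, and 0.0302 with the block). Again 0 were called by receptor status (medians of 0.36 in HSC and 0.14 in MPP). Osmr, the oncostatin M receptor gene, was at 0 counts in all Lepr- MPP libraries, with 3.85 ± 3.63 CPM among Lepr+ ones (adjusted p = 0.187), and it is a gene that stromal cells also express.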

How the data were processed

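For each library the authors deposited raw counts of read pairs over 55573 genes. Read pairs not assigned to a gene for any reason (21.4 to 38.7% of a library) stand in separate entries and were left out. FastQC 0.11.8, cutadapt 2.1, STAR 2.7.1a, HTSeq 0.11.2, DESeq2 (no version) and GRCm38 are named, per the submitters' processing notes. SMART-Seq v4 and Nextera XT were used, per the labels' protocols, and keep no strand; the counting mode is not given in the sources used here. GENCODE M21 matched 55480 gene identifiers and gave symbols and exon lengths. RefSeq promoter windows matched 9 of the 10 genes.

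Counts were tested in edgeR 4.0.16 (TMM, filterByExpr with minimum count 10 and total 15, robust quasi-likelihood F tests, two-sided, group as the only term, all 20 libraries), with Benjamini-Hochberg adjustment over 16509 genes at 0.05. DESeq2 1.42.0 was an alternative. The test was tried on data simulated as independent libraries. These held no replicate or date effect, so they do not show how the test performs with one. CPM use TMM-scaled sizes. SE are the absolute log2 fold change over the square root of F. The Stat5a share was tested by exact permutation, which with 5 against 5 libraries cannot go below 0.00794.

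Replicate numbers were taken to pair libraries, since the design text gives 2 mice per replicate and each number carried 1 date in all groups (3 numbers in June, 2 in July, per the file names). Deviations from group means of same-numbered libraries correlated at a median of 0.264 (30 pairs, range -0.0647 to 0.562, lowest for number 2), against -0.0857 for different numbers. Named genes are the 10 members, and members of the fixed lists that were called or had the smallest p. Members and lists were chosen with earlier results of these data known. The result of 1 list gene is not reported here.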

Additional observations from a re-analysis of the deposited data

Results flagged for a closer look

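In 44 sets of 5 libraries (the 10 genes and the Stat5a share in 4 groups) 3 held a library that stood apart from the others, with a gap to its neighbour above 0.71 of the whole range. Chance gives about 1 in 20. Socs1 had 24.1 CPM in Lepr- MPP replicate 4, against 9.02 to 12.7 CPM in the rest of its group. Socs2 had 46.2 CPM in Lepr- HSC replicate 1, against 21.01 to 26.9 CPM. The Stat5a share was 51.04% in Lepr+ MPP replicate 2, against 41.3 to 43.2% in the others.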

How the results depend on the processing

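With 5 libraries a group and a common biological coefficient of variation of 0.747, small differences could not be detected, and Socs3 rested on 1 to 632 counts. Of 950 fold changes of the 10 genes under other settings, 887 kept direction and side of the threshold, 10 newly passed it and 53 reversed, most near 0. The cause of each change was not tested, save that the June, July and reduced sets hold fewer libraries.

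All genes called between Lepr+ and Lepr- HSC numbered 17, against 180 with DESeq2, 169 with the replicate block, 0 in June, 0 in July and 8 leaving out the 3 least group-like libraries (a choice made after seeing the data in earlier work), and 0 to 24 with 1 library left out. In MPP they numbered 33, against 213, 17, 0, 0 and 0, and 4 to 49. Between Lepr- HSC and Lepr- MPP they numbered 451, against 839, 1238, 81, 0 and 768. Between Lepr+ HSC and Lepr+ MPP they numbered 77, against 338, 293, 0, 0 and 59, and 28 to 94. For the difference of receptor effects DESeq2 called 19. Of the 10 genes, 1 was called by DESeq2 between Lepr+ and Lepr- MPP. Between Lepr- HSC and Lepr- MPP 2 were called by DESeq2, 5 with the replicate block, 1 without the 3 libraries and 0 to 1 with 1 library left out. The block changed no other call of the 10 genes.

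Reversed log2 values in July alone were 0.39 and -0.65 for Jak2 (Lepr+ against Lepr- HSC, and HSC against MPP among Lepr- cells), 0.0506 and 0.0236 for the difference of receptor effects of Jak2 and Socs1, -0.012 for Sh2b3 by receptor in MPP, 0.0245 for Ptpn1 among Lepr- cells and -0.0735 for Stat5a among Lepr+ cells. In June alone they were -0.0592, 0.0178 and -0.00693 for Jak2, Socs3 and Ptpn1 by receptor in MPP, -0.0394 for Socs1 among Lepr+ cells and 0.00719 for the difference of receptor effects of Cish. Without the 3 libraries they were 0.17 for Ptpn1 by receptor in HSC, 0.0235 and -0.18 for Stat5b and Socs1 by receptor in MPP, -0.24 for Stat5a among Lepr+ cells, and -0.0427, -0.15, 0.43 and 0.21 for the difference of receptor effects of Stat5a, Stat5b, Socs1 and Cish.

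With 1 library left out, ranges that crossed 0 were, by receptor in HSC, -0.25 to 0.17 for Ptpn1, -0.10 to 0.00621 for Stat5a and -0.18 to 0.00768 for Stat5b. By receptor in MPP they were -0.0795 to 0.33 for Jak2, -0.0091 to 0.22 for Ptpn1, -0.14 to 0.22 for Sh2b3, -0.45 to 0.14 for Socs3 and -0.14 to 0.19 for Stat3. They were -0.26 to 0.26 for Jak2 among Lepr- cells, and -0.0512 to 0.55 for Socs1 and -0.13 to 0.24 for Stat5a among Lepr+ cells. For the difference of receptor effects they were -0.29 to 0.0444 for Cish, -0.36 to 0.0586 for Ptpn1, -0.72 to 0.0373 for Socs1 and -0.0428 to 0.20 for Stat5b.

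The difference in Stat5a share by receptor in HSC was -0.493 points in July alone and -1.11 to 2.13 with 1 library left out. The other share differences were -4.30 to -1.86 points by receptor in MPP, 1.67 to 3.99 among Lepr- cells and 4.61 to 8.10 among Lepr+ cells. An exact sign-flip test over the 5 replicate pairs, which cannot go below 0.0625, left all 4 above the threshold.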

Other observations

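Across the 20 libraries, the genes whose log2 CPM ran most like that of Socs2, by Pearson correlation among 10260 genes with a mean of at least 5 CPM, were Gimap4 (r = 0.93), a GTPase of lymphocytes, Xdh (0.92), xanthine dehydrogenase, and Mfap2 (0.90). For Socs3 they were Pheta1 (0.94), Gna15 (0.91), a G protein subunit of blood cells, and Slc17a9 (0.90). For Sh2b3 they were Lcp1 (0.94), the leukocyte plastin, Arhgap15 (0.93) and Parp9 (0.92), and Lcp1 (0.91) was also among those of Stat3, beside Stk4 (0.92) and Aldh2 (0.91). For Cish the highest value was 0.77, for Obsl1. These are the highest of many values over libraries that share replicate numbers, groups and depth, and describe likeness only.

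Jak2 ran most like Mapk9 (r = 0.98) and Ptpn1 like Mr1 (0.94), Stat5a like Esyt1 (0.88), Stat5b like Rnf144a (0.89) and Socs1 like Prdx5 (0.91).

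Of 14 tested immediate early and stress genes, Egr1, a transcription factor induced within minutes of many signals, was higher in Lepr+ HSC than in Lepr+ MPP (67.9 ± 21.3 against 22.1 ± 6.15 CPM, log2 fold change 1.62, adjusted p = 0.0341 by edgeR's quasi-likelihood test). In that comparison 0.466% of all genes tested were called. With replicate number as a block Ier2 was higher among HSC with than without surface receptor (0.68, adjusted p = 0.0261, against 0.581 with group as the only term). The block called 1.02% of all genes tested there.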
